A study of Mus musculus and Homo sapiens with 12 samples.

Results

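The genes described here are those of heme synthesis and cellular iron uptake: ALAS2, ALAS1, ALAD, UROD, CPOX and FECH, which encode enzymes of the heme pathway, SLC25A37 and SLC25A38, which encode mitochondrial carriers, and TFRC, which encodes transferrin receptor. They were chosen as a fixed list of 9 genes and matched by symbol without regard to case. All 9 were found in both count tables, among 55487 mouse and 78932 human genes. Messenger RNA had been sequenced in 12 libraries, 3 in each of 4 groups, to compare blood progenitors with and without DDX21, an RNA helicase of the nucleolus. The libraries form 2 experiments, and each was compared within itself.

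The mouse cells were live, lineage-negative, Kit-positive progenitors (LK cells) sorted from E13.5 fetal liver. Wild-type embryos (WT) carried the Ddx21f/f genotype, so the control cells also had loxP-flanked alleles of Ddx21. Knockout embryos (cKO) carried Vav-Cre; Ddx21f/f, in which Cre recombinase is driven by a promoter active in blood cells. The human cells were CD34+ CD45+ CD43+ cells differentiated from H1, a line of human embryonic stem cells. A lentivirus coding for mCherry brought in a short hairpin RNA, either the control (shNC-mCherry) or that against DDX21 (shDDX21-mCherry). The hairpin-positive cells were sorted 2 days after transduction, so both human groups had been transduced. The labels name 1 construct for each arm. They do not say whether the libraries of a group came from separate embryos, pools or cultures, so p-values measure the spread between these libraries, which may be technical in part. The lineage antibodies of the mouse sort included Ter119, a marker of later red cell precursors.

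Heme is made from glycine and succinyl-CoA. The first and rate-controlling step is made by 5-aminolevulinate synthase, which has a form found in most cells (ALAS1) and a form specific to red cell precursors (ALAS2). ALAD, UROS and UROD then act in the cytosol, CPOX, PPOX and FECH act in mitochondria, and FECH inserts the iron. SLC25A38 brings glycine into mitochondria, SLC25A37 (mitoferrin) brings in iron, and TFRC takes transferrin-bound iron into the cell. Red cell precursors are the main consumers of iron in fetal liver, and in them this pathway is switched on together with the globins, under transcription factors that include GATA1 and KLF1.

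ALAS2 and TFRC are also controlled after transcription, by iron-responsive elements (IREs), short hairpins in the transcript that bind iron regulatory proteins when iron is scarce. Binding in the 5′ UTR blocks translation, and binding in the 3′ UTR protects the transcript from decay. The mouse transcripts of both genes hold hairpins of this form, shown here because ALAS2 was the only one of the 9 genes that rose in both experiments and TFRC fell most among those that fell in both. The search asked for an unpaired C, 5 paired bases with G-U pairs allowed, and the loop CAGTGN, on the transcript strand only, in the UTRs of GENCODE M21 (GRCm38). The loop is in capitals. Alas2 has 1 site in its 5′ UTR and Tfrc has 4 in its 3′ UTR.
Alas2, chrX:150547458-150547485, plus strand: ttggttcgtcctCAGTGCagggcaacag
Tfrc, chr16:32631219-32631246, plus strand: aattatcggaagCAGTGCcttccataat
Tfrc, chr16:32631598-32631625, plus strand: cattatcgggagCAGTGTcttccataat
Tfrc, chr16:32631663-32631690, plus strand: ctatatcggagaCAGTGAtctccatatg
Tfrc, chr16:32631710-32631737, plus strand: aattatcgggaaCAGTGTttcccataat
The search found such a hairpin in the 5′ UTR of 31 of 22500 coding genes (0.138%) and in the 3′ UTR of 145 (0.644%). A match describes the letters and does not show that the site is bound. Outside the 9 genes, sites were looked up only for Fth1, Ftl1, Slc40a1 and Slc11a2. Fth1, Ftl1 and Slc40a1 each had 1 match in the 5′ UTR, and Slc11a2 had none. The other 7 of the 9 genes also had none. The search form is strict and can miss hairpins with other pairing, so the lack of a match does not show that a gene has no IRE.

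Promoters were read from RefSeq (GRCm38.p6) for the 7 of the 9 mouse genes that the table held, leaving out Slc25a37 and Fech. In the 250 bases before each start site, 3 words were searched on both strands: GATA sites (the word AGATAA, the word AGATAG, the word TGATAA or the word TGATAG), the E-box CACGTG, and the KLF1-type word CCACACCC. GATA words lay upstream of Alas2 and Cpox, and the E-box upstream of Alad and Urod. For each gene 100 bases around a match are given below, on the gene's strand, with the matches in capitals. Alad has a pair of start sites in the table, each with 1 E-box upstream; the stretch given holds the E-box at -105 to -100 from the upstream start, and the other, at -28 to -23 from the downstream start, lies outside it. In Cpox a pair of GATA words overlap by 1 base.
Alas2, chrX:150547257-150547356, plus strand: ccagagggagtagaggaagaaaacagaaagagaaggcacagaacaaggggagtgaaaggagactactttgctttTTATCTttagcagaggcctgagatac
Cpox, chr16:58670048-58670147, plus strand: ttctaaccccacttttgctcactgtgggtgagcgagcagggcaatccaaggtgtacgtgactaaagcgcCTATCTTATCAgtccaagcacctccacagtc
Alad, chr4:62520143-62520242, minus strand: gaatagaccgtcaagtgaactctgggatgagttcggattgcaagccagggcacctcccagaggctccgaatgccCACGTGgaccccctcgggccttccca
Urod, chr4:116994437-116994536, minus strand: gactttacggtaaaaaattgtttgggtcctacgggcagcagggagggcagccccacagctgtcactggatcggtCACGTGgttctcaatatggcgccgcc
Of 32851 promoters, 26.5% held a GATA word, 6.02% the E-box and 3.20% CCACACCC in the same window. None of the 3 was found upstream of Alas1, Slc25a38 or Tfrc. In cKO, Alas2 was higher, and Cpox, Alad and Urod were lower, with calls for Cpox and Alad that were lost in some alternative settings. Any part of these words in the differences was not tested.

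Depth was 21116079 to 23898130 counts a library in the mouse and 15289510 to 19798608 in the human experiment. Levels are given as CPM, counts relative to the library total after scaling by TMM factors, a correction for differences in library composition. Differences come from edgeR's quasi-likelihood test over all genes, with calls made at an adjusted p (Benjamini-Hochberg) under 0.05. The targeted gene was lower in both perturbed groups, at 280.2 ± 3.62 CPM against 1424 ± 12.5 CPM (SD, n = 3 each) for Ddx21 and at 14.5% of the control for DDX21. Mouse libraries varied more than human ones, with a biological coefficient of variation of 10.5% against 2.234%. WT replicate 3 stood furthest from the others of its group. In cKO, replicates 1 and 2 stood furthest apart, and replicate 3 was nearer to each of them than they were to each other. WT replicate 3 and cKO replicate 2 had the lowest Alad, Alas1 and Slc25a38 of their groups, and cKO replicate 1 had the highest of its group. Kit was at 359 to 368 CPM in WT and 312 to 322 CPM in cKO, and Itgam, a marker removed by the sort, was at no more than 3.45 CPM.

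In mouse cKO cells, Alas2 rose and 7 of the 9 genes fell, while Fech was not called. The largest decreases in level were those of Alad, Tfrc and Slc25a38, and the smallest that of Cpox. In this comparison 36.5% of all 14918 genes tested were called, 20.7% higher and 15.8% lower. In human shDDX21 cells all 9 genes were called. ALAS2, SLC25A37, UROD, SLC25A38 and ALAD rose and TFRC, ALAS1, FECH and CPOX fell, where 52.7% of 20188 genes were called, 25.3% higher and 27.4% lower. The median log2 difference of the 9 genes was -0.51 in the mouse and 0.094 in the human cells, beside 0.00057 and 0.0052 over all genes tested. The mouse count of decreases was 4 without WT replicate 2 and 4 without cKO replicate 3. The libraries of the 2 groups did not overlap for 8 of the 9 genes in the mouse, beside 49.0% of all genes, and for 9 of 9 in the human cells, beside 57.4%. In these bulk samples, fewer cells of a type and less RNA per cell cannot be told apart.

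**Figure D1:**
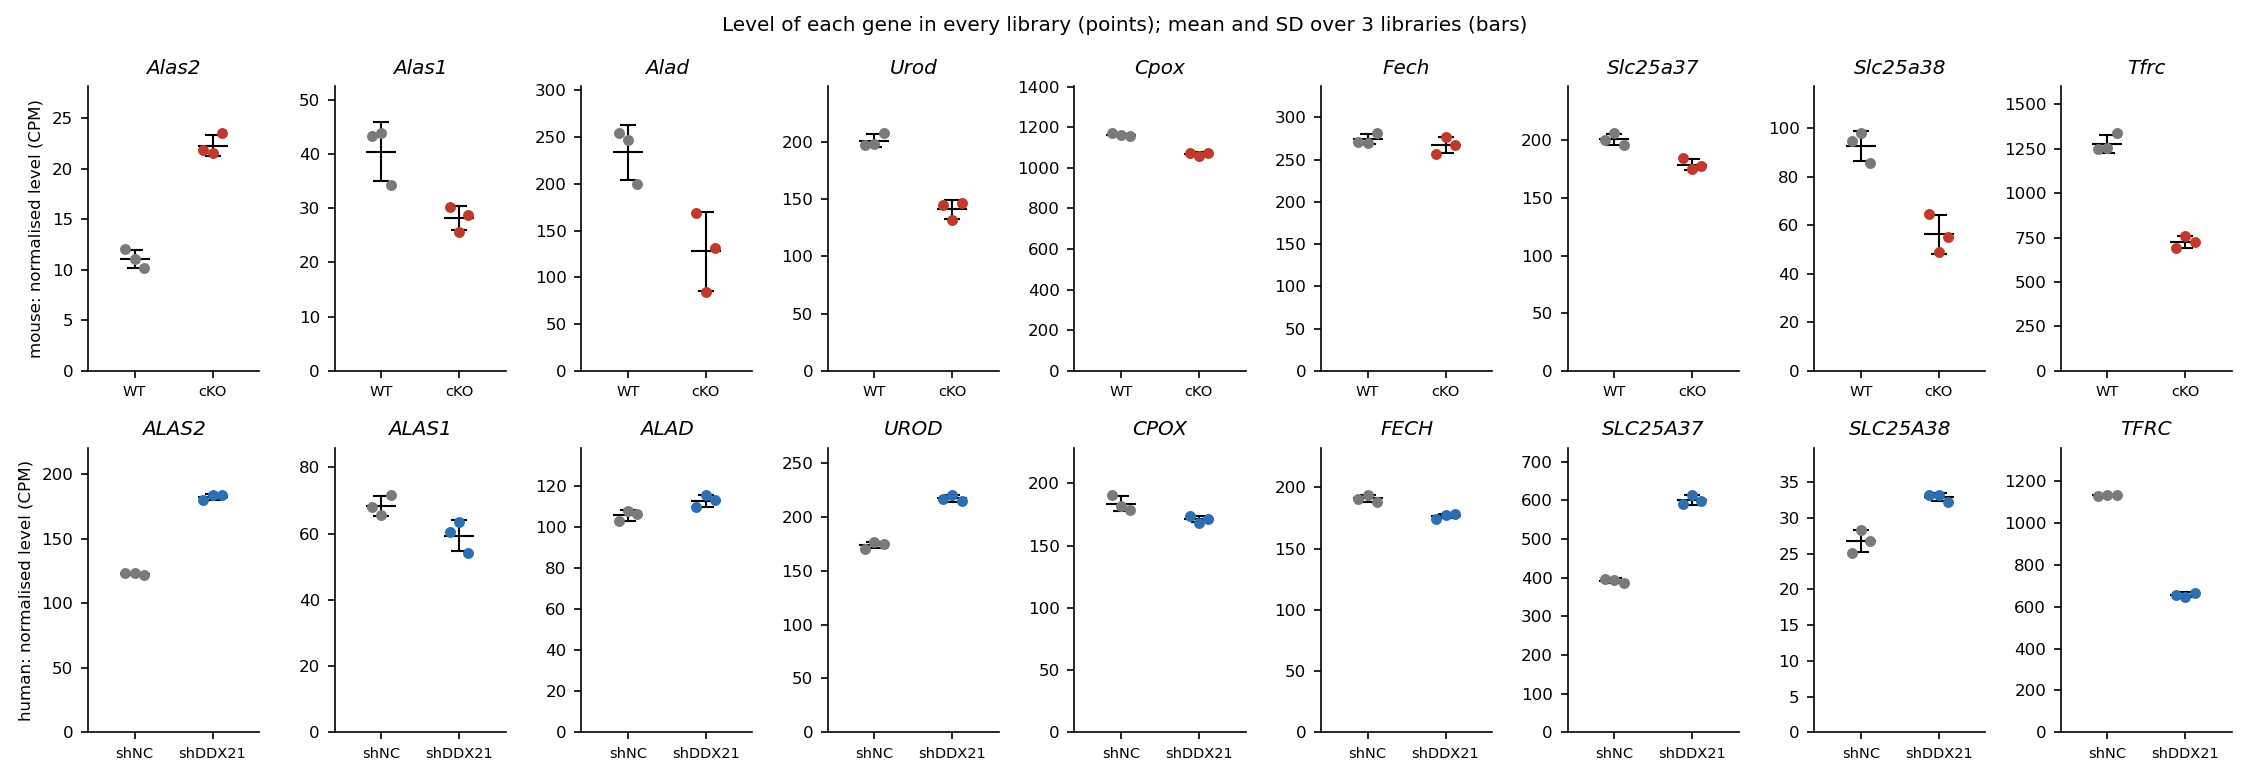
Level of each of the 9 genes in every library, in CPM on linear axes that start at 0, for mouse (upper row) and human cells (lower row). Points are libraries and bars are the mean and SD over 3 libraries. Alas2 is the only gene of the upper row with higher levels in cKO, and Fech is the only gene whose groups overlap.

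Markers of the red cell lineage mostly fell in the mouse, as did most of these genes. In the human cells the markers mostly rose, while the 9 genes were split, with 5 higher and 4 lower. Of 20 erythroid markers listed, 18 were tested in the mouse, and 1 rose and 14 fell. Their summed level was 4519 to 4731 CPM in WT and 3327 to 3492 CPM in cKO, with Icam4 at 0 in every library. In the human cells 19 were tested, 12 rose and 3 fell, and the sum went from 1231 to 1267 CPM in shNC to 1409 to 1441 CPM in shDDX21. The list holds GATA1, KLF1 and EPOR, which are also described below. The part of this shift in the levels of the heme genes was not tested, and levels relative to these markers are given further on.

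ALAS2, the red cell form of the first enzyme, was higher in the perturbed cells of both experiments. Mouse Alas2 (ENSMUSG00000025270, GRCm38 chromosome X, 150547375 to 150570638, plus strand) was at 12.02, 11.05 and 10.21 CPM in WT and at 21.86, 21.52 and 23.49 CPM in cKO. The cKO libraries lay close together and far above every WT library. The increase was 2.01-fold, a log2 difference of 1.01 (SE 0.088, adjusted p 1.52e-04 in edgeR), and it was called in all 13 alternative settings. The gene was weakly expressed in this sort, with 220 to 268 counts in WT. Of its 2403 exon bases, 372 (15.5%) overlap Apex2, which is transcribed in the opposite direction, and whether reads were counted by strand is not given in the sources used here. Apex2 itself was not called, at 19.6 and 19.4 CPM (adjusted p 0.919).

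Human ALAS2 (ENSG00000158578, chromosome X) started from a level above 100 CPM. It was at 123.3, 123.4 and 121.7 CPM in shNC and at 179.8, 183.9 and 183.9 CPM in shDDX21. Neither group spread by more than a few percent, and they did not overlap. The log2 difference was 0.57 (SE 0.030, adjusted p 1.68e-27 in edgeR).

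In the mouse, the summed level of Ddx3y, Eif2s3y, Kdm5d and Uty, which are Y-linked, was 133 to 147 CPM in WT and 263 to 300 CPM in cKO. Alas2 is X-linked, the labels give no embryo sex, and the part of embryo sex in its difference was not tested.

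ALAS1, the form of the first enzyme used by most cells, went the other way. Mouse Alas1 (ENSMUSG00000032786, chromosome 9, 106233455 to 106248654, minus strand) was at 43.28, 43.76 and 34.25 CPM in WT and at 30.13, 25.69 and 28.66 CPM in cKO. WT replicate 3 lay nearest to the cKO libraries but still above them. The log2 difference was -0.52 (SE 0.11, adjusted p 0.00964 in edgeR). Human ALAS1 (ENSG00000023330) was at 68.05, 65.53 and 71.63 CPM in shNC and at 60.47, 63.43 and 54.27 CPM in shDDX21, a log2 difference of -0.21 (SE 0.046, adjusted p 9.11e-05). The human groups were adjacent, with the lowest shNC library only slightly above the highest shDDX21 library.

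Because ALAS2 and ALAS1 make the same reaction, their balance was described within each library, per length of exon, where scaling between libraries has no part. ALAS2 made up 41.6%, 39.3% and 43.4% of the summed ALAS2 and ALAS1 level in WT and 65.1%, 68.3% and 67.8% in cKO. Per length, the housekeeping form was the more abundant in every WT library and the red cell form in every cKO library. By counts, not divided by length, Alas2 made up 21.7%, 20.2% and 23.0% in WT and 42.0%, 45.6% and 45.0% in cKO, so Alas1 had more counts in all 6 libraries. The share of Alas2 was higher in cKO on both scales, and which form exceeds the other in cKO depends on the division by length. In the human cells ALAS2 was the more abundant in both groups, at 69.2%, 70.0% and 67.8% in shNC and 78.7%, 78.2% and 80.8% in shDDX21. The mean log2 ratio of ALAS2 to ALAS1 went from -0.50 to 1.03 in the mouse and from 1.15 to 1.93 in the human experiment. The ratio rests on the deposited exon lengths, which merge all exons of a gene.

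**Figure D2:**
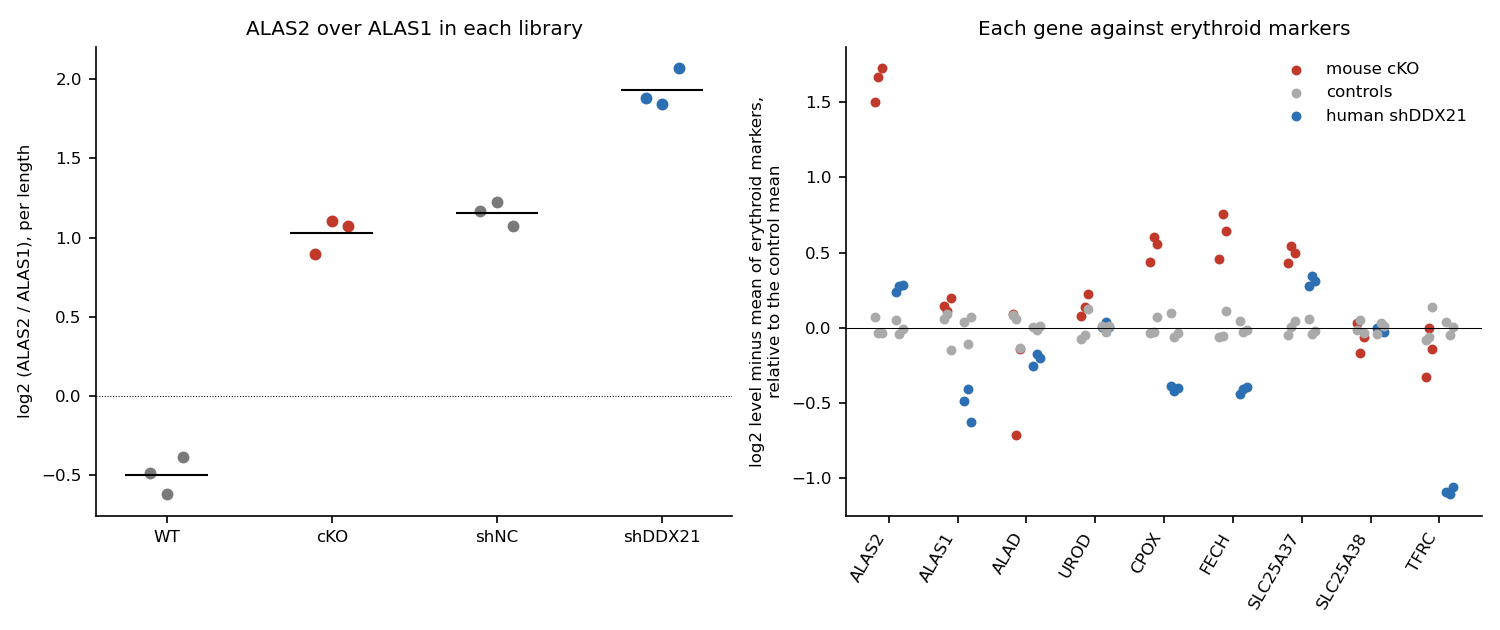
Left, log2 ratio of ALAS2 to ALAS1 per length in each library, with lines at group means of -0.50 (WT), 1.03 (cKO), 1.15 (shNC) and 1.93 (shDDX21). Right, log2 CPM of each gene minus the mean log2 CPM of the erythroid markers in the same library, shown relative to the mean of the controls. Mouse ALAS2 stands highest and human TFRC lowest.

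ALAD, the next enzyme, joins pairs of 5-aminolevulinate molecules. Mouse Alad (ENSMUSG00000028393, chromosome 4, 62509169 to 62519918, minus strand) was at 254, 246.8 and 200.3 CPM in WT and at 168.6, 84.25 and 131.6 CPM in cKO. Every cKO library lay below every WT library, but the cKO libraries spread by a factor of about 2. The log2 difference of -0.87 (SE 0.23, adjusted p 0.0228 in edgeR) was the least precise among the 9 genes. It was -0.97 (adjusted p 0.0239) without WT replicate 3 and -0.62 (adjusted p 0.00919) without cKO replicate 2. The call was lost without WT replicate 1 (adjusted p 0.0731), WT replicate 2 (0.0752) or cKO replicate 3 (0.0739). Human ALAD (ENSG00000148218) was at 103.1, 108.2 and 106.4 CPM in shNC and at 109.7, 115.8 and 113.4 CPM in shDDX21. This is a small increase between adjacent groups, with a log2 difference of 0.094 (SE 0.034, adjusted p 0.0166), and the call was lost in 5 of 13 alternative settings, among them without shNC replicate 1 (adjusted p 0.135) or shDDX21 replicate 2 (0.103).

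UROD, which removes carboxyl groups from uroporphyrinogen, changed in opposite directions in the experiments. Mouse Urod (ENSMUSG00000028684, chromosome 4, 116989965 to 116994413, minus strand) was at 197.2, 198.5 and 207.5 CPM in WT and at 144.6, 131.8 and 147.1 CPM in cKO, a log2 difference of -0.51 (SE 0.051, adjusted p 2.90e-04 in edgeR). Human UROD (ENSG00000126088) was at 170.3, 176.1 and 174.7 CPM in shNC and at 216.5, 220.1 and 214.2 CPM in shDDX21, a log2 difference of 0.32 (SE 0.028, adjusted p 1.07e-16). In both experiments the spread within a group was small beside the gap between groups. Of the exon bases of human UROD, 9.31% are shared with HECTD3 on the other strand.

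CPOX, the enzyme after UROD, changed little. Mouse Cpox (ENSMUSG00000022742, chromosome 16, 58670292 to 58717636, plus strand) was at 1169, 1162 and 1158 CPM in WT and at 1073, 1056 and 1071 CPM in cKO, also one of the highest per length among the 9 genes. The groups did not overlap, but the log2 difference was only -0.12 (SE 0.030, adjusted p 0.0167 in edgeR). It was called in 4 of 13 alternative settings, and the call was lost without any 1 of WT replicates 1 and 2 and the 3 cKO replicates (adjusted p 0.0527 to 0.0718) and with total-count scaling (0.302). Human CPOX (ENSG00000080819) was at 190.7, 182.1 and 178.4 CPM in shNC and at 173.7, 168.5 and 171.2 CPM in shDDX21, a log2 difference of -0.10 (SE 0.029, adjusted p 0.00201), which was not called with upper-quartile scaling (adjusted p 0.345).

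FECH, the last enzyme, also differed little. Mouse Fech (ENSMUSG00000024588, chromosome 18, 64452914 to 64490251, minus strand) was at 271.3, 269.9 and 280.9 CPM in WT and at 256.9, 276.3 and 267.7 CPM in cKO. The groups overlapped, and the log2 difference of -0.038 (SE 0.040, adjusted p 0.492 in edgeR) had a 95% confidence interval of -0.13 to 0.055. Its sign turned without cKO replicate 1 (0.00096) and with total-count scaling (0.028). Human FECH (ENSG00000066926) was at 190.8, 193.7 and 188.2 CPM in shNC and at 174.5, 177 and 178.2 CPM in shDDX21. The human groups were separate, with a log2 difference of -0.11 (SE 0.028, adjusted p 4.67e-04) that was not called with upper-quartile scaling (adjusted p 0.193).

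SLC25A37 carries iron into mitochondria for heme and iron-sulfur clusters. Mouse Slc25a37 (ENSMUSG00000034248, chromosome 14, 69241848 to 69285112, minus strand) was at 200.7, 205.9 and 196.1 CPM in WT and at 184.3, 174.9 and 177.3 CPM in cKO, a log2 difference of -0.17 (SE 0.038, adjusted p 0.0126 in edgeR). The decrease was small, and its call was lost with total-count scaling (adjusted p 0.0884) and without WT replicate 2 (0.0567) or cKO replicate 3 (0.0608). Human SLC25A37 (ENSG00000147454) was at 396.6, 394.6 and 385.3 CPM in shNC and at 589.9, 613.5 and 597.5 CPM in shDDX21. All shDDX21 libraries were far above all shNC libraries. The log2 difference of 0.61 (SE 0.022, adjusted p 1.33e-36) was the largest increase among the 9 human genes.

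SLC25A38, the mitochondrial glycine carrier, is known as a gene of inherited sideroblastic anemia. Mouse Slc25a38 (ENSMUSG00000032519, chromosome 9, 120110374 to 120124504, plus strand) was at 94.68, 97.93 and 85.9 CPM in WT and at 64.54, 48.91 and 55.37 CPM in cKO. The log2 difference was -0.72 (SE 0.10, adjusted p 0.00158 in edgeR), and every cKO library was below every WT library. Human SLC25A38 (ENSG00000144659) had the lowest level per length of the 9 human genes and was at 25.13, 28.26 and 26.84 CPM in shNC and 33.21, 33.2 and 32.29 CPM in shDDX21. It rose by a log2 difference of 0.30 (SE 0.063, adjusted p 2.72e-05). Antisense genes without a symbol share 15.9% of the exon bases of human SLC25A38 and 11.1% of those of human ALAS1, with 52 and 119 counts over all 6 libraries.

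TFRC, the receptor for iron-loaded transferrin, fell in both experiments. Mouse Tfrc (ENSMUSG00000022797, chromosome 16, 32608920 to 32632794, plus strand) was at 1247, 1253 and 1336 CPM in WT and at 693.1, 761.2 and 726.5 CPM in cKO. Human TFRC (ENSG00000072274) was at 1128, 1132 and 1131 CPM in shNC and at 656.8, 645.3 and 667 CPM in shDDX21. In neither experiment did a perturbed library come near a control library. The log2 difference was -0.81 (SE 0.048, adjusted p 2.43e-05 in edgeR) in the mouse and -0.78 (SE 0.020, adjusted p 7.07e-46) in the human cells. Each was called in all 13 alternative settings, within -0.84 to -0.75 and -0.81 to -0.72.

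The differences themselves were compared in a single edgeR fit of all 12 libraries, with an interaction term and 1 estimate of spread shared by both experiments. Of 10301 genes matched by symbol, 56.3% were called, 35.9% with the mouse difference above the human and 20.4% below. Of the 9 genes, 1 was above and 4 were below. ALAS2 had a mouse minus human difference of 0.43 in log2 units (SE 0.074, adjusted p 3.81e-04), so its increase was larger in the mouse. With the estimate of spread shared, this SE is below the 0.088 of the mouse difference alone, so its adjusted p may be too small. SLC25A38 at -1.02 (SE 0.13, adjusted p 3.57e-05), ALAD at -0.96 (SE 0.26, adjusted p 0.00823), UROD at -0.83 (SE 0.058, adjusted p 2.93e-07) and SLC25A37 at -0.78 (SE 0.043, adjusted p 4.44e-08) were lower in cKO and higher in shDDX21. The interaction does not test whether the signs are opposite. Within the experiments, the calls for ALAD in both and for Slc25a37 in the mouse were lost in some alternative settings. Species, cell type, means of perturbation and time differ between the experiments and cannot be told apart here.

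For TFRC the difference between the experiments was -0.030, with a 95% confidence interval of -0.14 to 0.084 and an adjusted p of 0.644. For CPOX it was -0.022 (interval -0.11 to 0.065, adjusted p 0.658) and for FECH 0.075 (interval -0.024 to 0.17, adjusted p 0.179). FECH was called without cKO replicate 1 (0.11, adjusted p 0.0489) and with total-count scaling (0.17, adjusted p 0.0249). The sign for TFRC turned without cKO replicate 1 (0.014) and that for CPOX without shNC replicate 3 (0.0033), and both turned with total-count scaling (0.065 and 0.073). ALAS1 fell more in the mouse by 0.32, but with an adjusted p of 0.0647, and it was called in 5 of 18 alternative settings, among them without WT replicate 3 (adjusted p 0.00472), cKO replicate 1 (0.0388) or shDDX21 replicate 3 (0.0413).

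**Figure D3:**
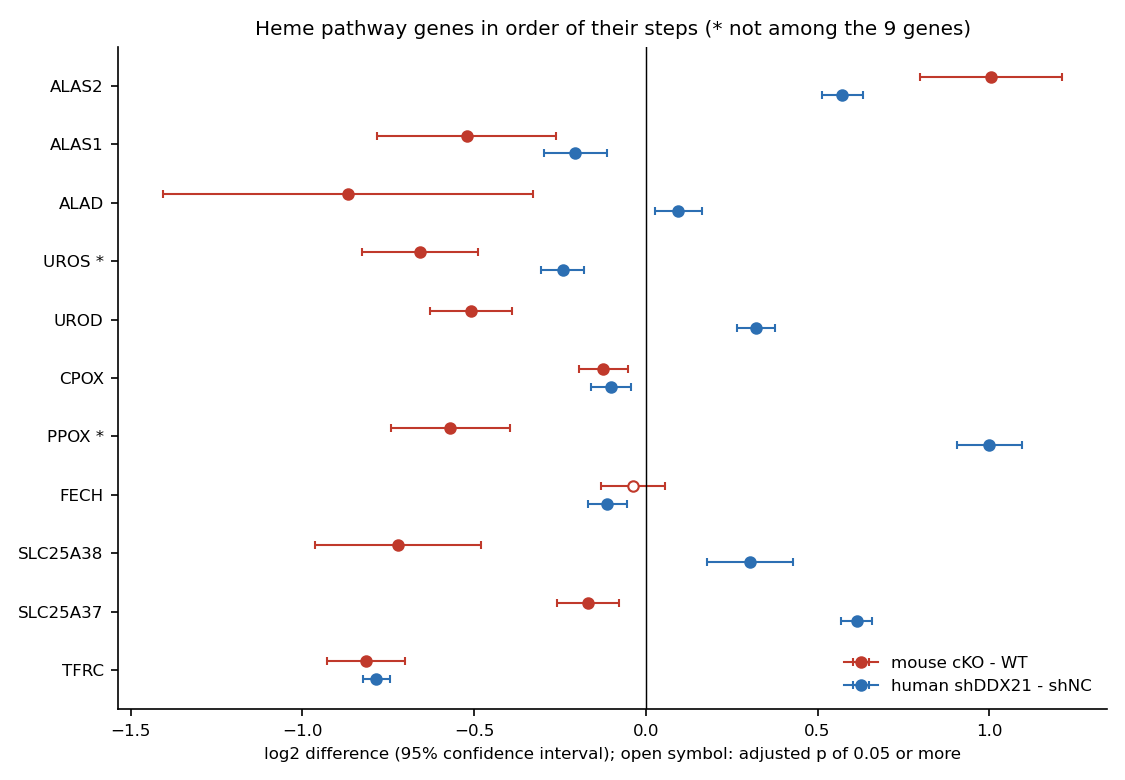
Log2 difference between perturbed and control cells with its 95% confidence interval for the heme enzymes in pathway order, followed by the carriers and TFRC. Genes marked with an asterisk are the enzymes UROS and PPOX, and an open symbol has an adjusted p of 0.05 or more. Intervals of the experiments lie on opposite sides of 0 for ALAD, UROD, PPOX, SLC25A38 and SLC25A37, and nearly coincide for TFRC and CPOX.

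UROS and PPOX are enzymes of the pathway outside the 9 genes. In the mouse both fell. Uros, which closes the porphyrinogen ring, went from 71.5 ± 4.40 to 45.3 ± 3.33 CPM (SD, n = 3 each), a log2 difference of -0.66 (adjusted p 4.71e-04 in edgeR). Ppox fell by 0.57 on the log2 scale (adjusted p 0.00103).

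Human UROS fell by 0.24 on the log2 scale (adjusted p 3.86e-10 in edgeR). PPOX, the enzyme that oxidises protoporphyrinogen, rose from 35.9 ± 0.653 to 71.8 ± 1.13 CPM (SD, n = 3 each), a log2 difference of 1.00 (adjusted p 4.05e-30). Its increase was larger than that of any of the 9 genes in the human cells. The mouse minus human difference of PPOX was -1.57 (adjusted p 4.24e-08).

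Levels of different genes were compared per length, as TPM, the share of each gene in the library after division of counts by exon length. The TPM is used here for the order of genes within a group, and differences between groups are read from the CPM above. In WT the order was Tfrc (766.9 ± 50.2 TPM, SD, n = 3), Cpox (647.1), Alad (462), Urod (287.8), Slc25a38 (125.2), Slc25a37 (123.6), Fech (73.4), Alas1 (24.2) and Alas2 (17.1 ± 0.970). Slc25a38 and Slc25a37 overlapped over their libraries, and the other neighbours did not. The highest mean was 44.9 times the lowest. The entry step of the pathway therefore had the lowest transcript levels of the 9 genes in WT fetal liver LK cells, and iron uptake the highest.

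In cKO, Cpox came first (629.1 TPM) and Tfrc second (462.1), and Alas2 (36.4) stood above Alas1 (17.9). Alad (267.8) overlapped Urod (213.9), and Slc25a38 (80.3) overlapped Fech (75.8). In shNC the genes lay closer together, with TFRC (244.6 TPM), ALAS2 (225.5) and CPOX (218.7) at the top and SLC25A38 (37.8) at the bottom, the highest mean being 6.48 times the lowest. ALAS2 and CPOX overlapped. In shDDX21, ALAS2 (300.2 TPM) and SLC25A37 (252.7) came first and TFRC (127.1) came after CPOX and UROD, with overlap between CPOX (182.4) and UROD (181.2) and between ALAS1 (78.8) and ALAD (76.9). The deposited exon length of TFRC is 17376 bases in human and 6185 in mouse, so its level per length depends on the annotation.

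**Figure D4:**
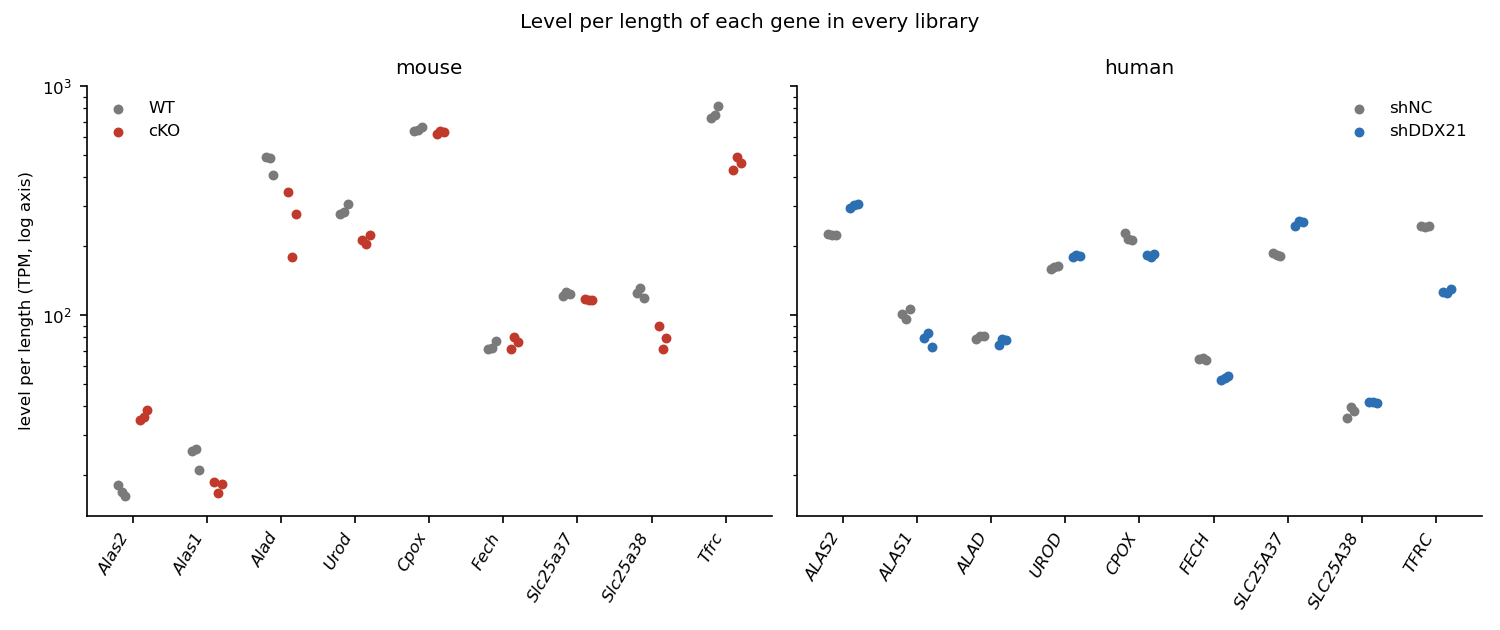
Level per length of each gene in every library, in TPM on a log axis, for mouse (left) and human cells (right). Alas1 and Alas2 are lowest in the mouse, at 17.1 to 36.4 TPM on average, whereas ALAS2 is among the highest in the human cells, at 225.5 and 300.2 TPM.

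Each gene was also set against the erythroid markers of its own library, as log2 (CPM + 0.5) minus the mean of the same value over the markers tested. That mean went from 7.43 to 6.78 in the mouse and from 4.87 to 5.17 in the human cells. The mouse mean includes Aqp1, which fell from 139.8 to 12.7 CPM, a log2 difference of -3.46 and the largest among these markers. Aqp1 lowers the cKO mean and so raises every gene on this scale in cKO. Small mouse differences and overlaps on this scale can therefore depend on this marker. Relative to the marker mean, mouse Alas2 was higher in cKO by 1.63 on the log2 scale, Fech by 0.62, Cpox by 0.53 and Slc25a37 by 0.49, all with groups that did not overlap. Alas1 was higher by 0.15, also without overlap, but a difference of this size can rest on Aqp1 alone. Alad, Urod, Slc25a38 and Tfrc had overlapping groups on this scale, with mean differences of -0.26, 0.15, -0.067 and -0.16.

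For the human cells the same scale gave higher values in shDDX21 for SLC25A37 (0.31) and ALAS2 (0.27), and lower ones for TFRC (-1.09), ALAS1 (-0.51), FECH (-0.42), CPOX (-0.41) and ALAD (-0.21). UROD and SLC25A38 overlapped, with mean differences of 0.017 and -0.0083. ALAS2 was thus higher in both experiments also against these markers. TFRC was lower against them in the human cells. In the mouse its groups overlapped, but that overlap can depend on Aqp1 being among the markers, so it does not set the experiments apart. These are descriptions with no test.

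Other genes of heme and iron handling were taken from lists. Over all genes tested, 36.5% were called in the mouse (20.7% higher, 15.8% lower). In the human cells 52.7% were called (25.3% higher, 27.4% lower). The counts of every list below are to be read beside these shares, and a count near them does not set a list apart. Among 10 genes that support heme synthesis, 1 rose and 3 fell in the mouse (median log2 difference -0.25), and 3 rose and 4 fell in the human cells (median 0.0042). Abcb10, a mitochondrial transporter that stabilises mitoferrin, fell in both, from 161 ± 1.74 to 114 ± 3.81 CPM in the mouse and from 62.6 ± 3.04 to 38.6 ± 1.5 CPM in the human cells (SD, n = 3 each). Their log2 differences were -0.50 (adjusted p 8.83e-05 in edgeR) and -0.70 (adjusted p 7.46e-21). In the mouse Tmem14c, a porphyrinogen importer, fell by 0.31, and Nfs1, of iron-sulfur cluster assembly, fell by 0.26, the Nfs1 call being lost without cKO replicate 3 (adjusted p 0.0556). Mouse Pgrmc1, a heme-binding membrane protein, rose by 0.19 (adjusted p 0.0401 in edgeR), a call lost in DESeq2 (adjusted p 0.132), with RLE scaling (0.0509), with no filter on low counts (0.0843) and without each WT replicate in turn (0.0865 to 0.116) or cKO replicate 2 (0.0711). Human FAM210B and ISCU, a scaffold of iron-sulfur cluster assembly, rose by 0.93 and 0.26, and GLRX5, also of iron-sulfur metabolism, fell by 0.70.

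Of 12 genes of iron uptake and storage, 0 rose and 5 fell in the mouse (median -0.36), and 8 rose and 3 fell in the human cells (median 0.16). The mouse count of increases was also 0 at an unadjusted p under 0.05 and in DESeq2. SLC11A2 (DMT1), which moves iron out of the endosome, fell in cKO from 185 ± 6.44 to 114 ± 4.21 CPM and rose in shDDX21 from 119 ± 5.64 to 179 ± 3.15 CPM (SD, n = 3 each). Its log2 differences were -0.70 (adjusted p 3.42e-05 in edgeR) and 0.59 (adjusted p 6.07e-27), and the difference between them was called (-1.29, adjusted p 1.14e-08). Mouse Steap3, the endosomal ferric reductase, and Tfr2, a second transferrin receptor, fell by 0.56 and 0.81 (adjusted p 0.0221 and 0.00874), and the Steap3 call was lost without WT replicate 1 (adjusted p 0.0766), WT replicate 2 (0.0795) or cKO replicate 3 (0.0810). Human HFE rose by 0.79, and EXOC6, an exocyst subunit involved in transferrin recycling, and PCBP1, an iron chaperone, fell by 1.05 and 0.61.

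SLC40A1 (ferroportin), the iron exporter, fell in both experiments, by 0.74 in the mouse and 0.27 in the human cells (adjusted p 2.56e-05 and 4.07e-19 in edgeR). Ferritin genes have many processed copies, so their counts are uncertain. Mouse Fth1 was at 539 ± 13.7 and 500 ± 22.4 CPM and Ftl1 at 266 ± 99.2 and 153 ± 89.9 CPM (SD, n = 3 each), and neither was called (adjusted p 0.0923 and 0.202 in edgeR). Ftl1 was called as lower without cKO replicate 1 (-1.35, adjusted p 0.0214). Human FTL rose by 0.33 (adjusted p 1.85e-22). Human FTH1 was called at 0.13 (adjusted p 0.00648) with overlapping groups, and the difference was -0.0083 without shDDX21 replicate 3, whose level of 315 CPM stood apart from 242 and 240 CPM in the others. The FTH1 call was also lost without shNC replicate 3 (adjusted p 0.112) and in DESeq2 (0.461).

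Of the 3 genes that sense iron, ACO1, IREB2 and FBXL5, 0 were called in the mouse by edgeR or DESeq2, and 0 had an unadjusted p under 0.05 (median 0.037). Human IREB2, which encodes an iron regulatory protein, fell by 0.31 and ACO1, which encodes the other, by 0.17 (adjusted p 4.07e-16 and 0.00207), and the ACO1 call was lost with upper-quartile scaling (0.0757). Among genes of heme export, binding and breakdown, 3 of 10 rose and 3 fell in the mouse, and 4 of 9 rose and 3 fell in the human cells (medians -0.042 and 0.055). HMOX1, which degrades heme, rose in both, from 1.27 ± 0.343 to 3.61 ± 0.801 CPM in the mouse and from 34.9 ± 1.77 to 62.7 ± 4.30 CPM in the human cells (SD, n = 3 each). SLC48A1, a heme transporter, rose in both, by 0.26 and 0.59, and HEBP1, a heme-binding protein, fell in both, by 0.99 and 0.39. Of the biliverdin reductases, Blvrb fell in the mouse by 1.09 (adjusted p 0.0142 in edgeR) and BLVRA in the human cells by 0.95 (adjusted p 5.64e-17). The Blvrb call was lost without WT replicate 1 (adjusted p 0.0514), WT replicate 2 (0.0545) or cKO replicate 3 (0.0633). Mouse Eif2ak1, the heme-regulated kinase of translation, fell by 0.24.

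Among 8 erythroid regulators, 2 rose and 4 fell in the mouse and 5 rose and 1 fell in the human cells (medians -0.42 and 0.080). Mouse Klf1 fell from 112 ± 27.4 to 50.1 ± 13.4 CPM (SD, n = 3 each, log2 difference -1.16, adjusted p 0.00804 in edgeR). Mouse Gata1 fell by 0.35 (adjusted p 0.0382) and Epor, the erythropoietin receptor, by 1.07 (adjusted p 0.0376), with overlapping groups for Epor. The Gata1 and Epor calls were each lost without any 1 of WT replicates 1 and 2 and cKO replicates 2 and 3, with adjusted p of 0.0660 to 0.126 for Gata1 and 0.0614 to 0.124 for Epor. Nfe2 rose by 0.35, a call lost without WT replicate 2 (adjusted p 0.0851), WT replicate 3 (0.0672) or cKO replicate 3 (0.0941). In the human cells GATA1 rose by 0.37, TAL1 by 0.54 and EPOR by 0.64, LMO2 fell by 0.77, and KLF1 was not called (-0.079, adjusted p 0.0576 in edgeR). KLF1 was called as lower without shNC replicate 3 (adjusted p 0.0108) or shDDX21 replicate 2 (0.0123) and with total-count scaling (0.00718).

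**Figure D5:**
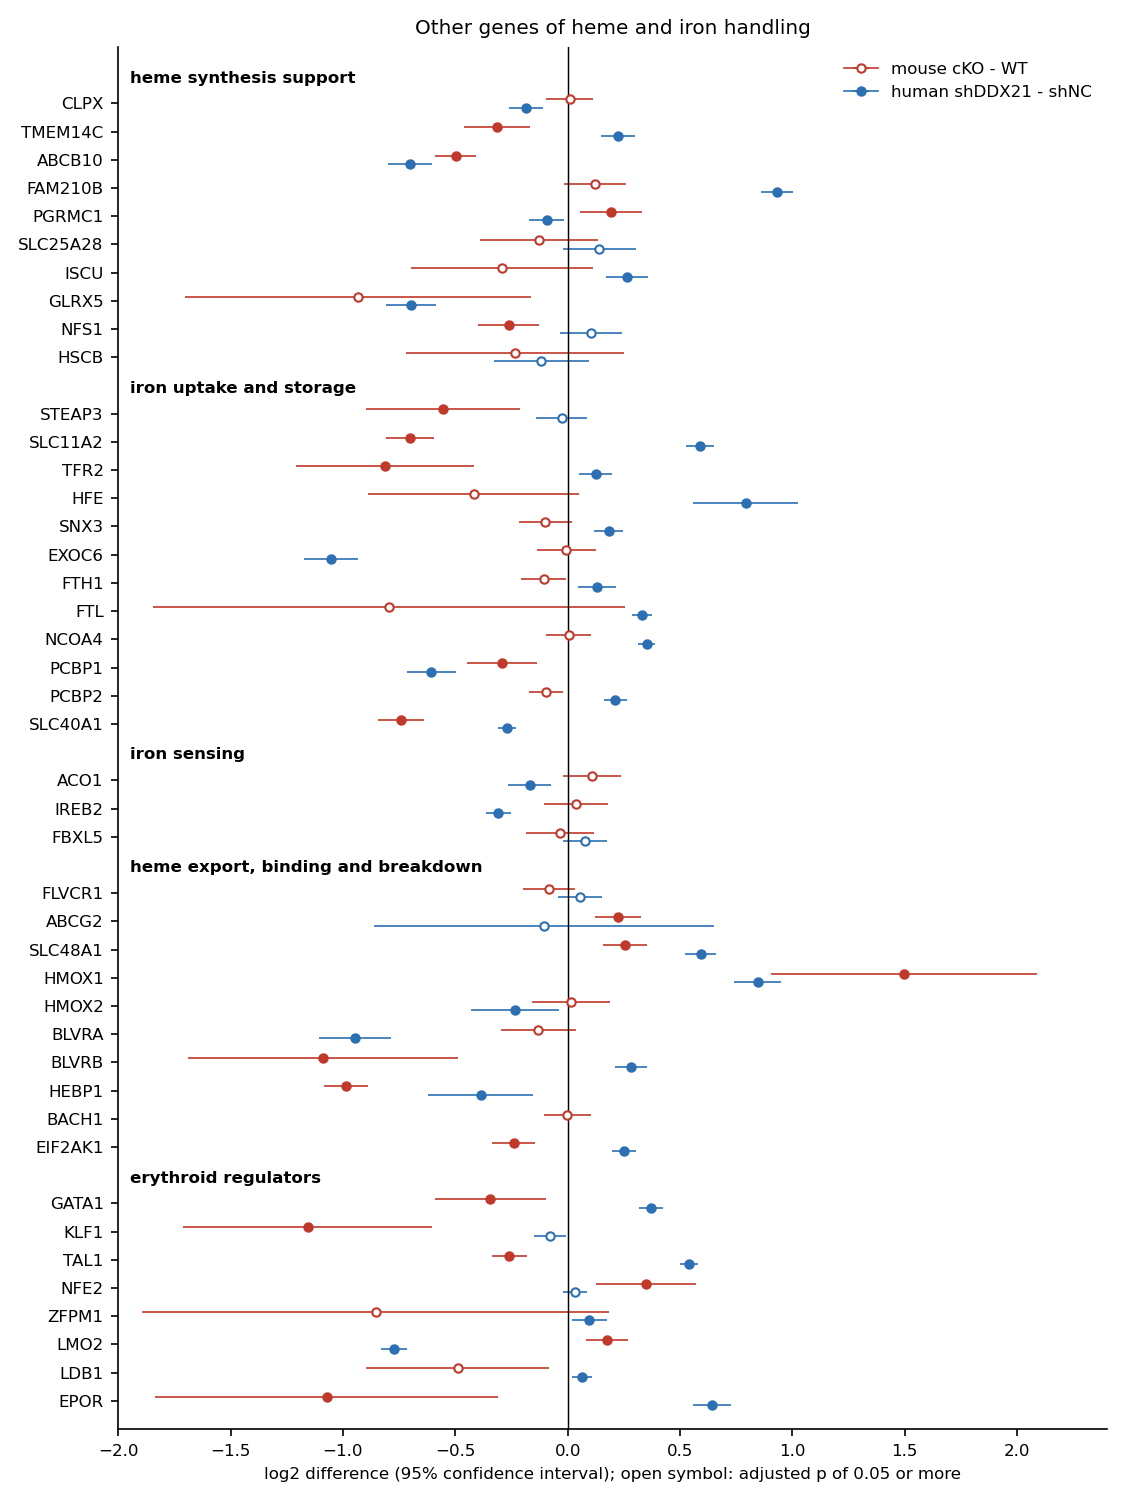
Log2 difference with its 95% confidence interval for the other genes of heme and iron handling, by list, in mouse and human cells. Open symbols have an adjusted p of 0.05 or more. Iron uptake and storage genes lie mostly at or left of 0 in the mouse (5 lower, 0 higher) and mostly right of 0 in the human cells (8 higher, 3 lower). Over all genes tested, 15.8% were lower and 20.7% higher in the mouse, and 25.3% higher and 27.4% lower in the human cells.

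Markers of other cell types also moved with the groups. In the mouse the summed level of 12 stem and multipotent progenitor markers was 302 to 318 CPM in WT and 627 to 653 CPM in cKO, and that of 10 megakaryocyte markers 109 to 126 and 169 to 214 CPM. Granulocyte and monocyte markers (12 genes) went from between 771 and 1036 CPM to between 409 and 659 CPM. Hepatocyte markers (10 genes) were low, at 14.7 to 16.6 CPM in WT and 49.4 to 53.5 CPM in cKO, and macrophage markers (10 genes, C1qc at 0) were at 1.66 to 3.60 CPM. Mast cell markers (9 genes) were at 116 to 118 and 144 to 148 CPM, and endothelial markers (8 genes) at 76.7 to 82.4 and 124 to 138 CPM.

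Among the human markers, 8 of 12 stem markers summed to 775 to 782 CPM in shNC and 853 to 865 CPM in shDDX21, and 7 of 10 megakaryocyte markers to 1804 to 1884 and 1985 to 2006 CPM. Both lists were split. Of the stem markers 5 rose and 3 fell (median log2 difference 0.17), and of the megakaryocyte markers 2 rose and 3 fell (median -0.15). Over all genes tested, 25.3% rose and 27.4% fell. ITGA2B, the highest of the megakaryocyte list, was at 1351 CPM in shNC and 1582 CPM in shDDX21. The sums fell for granulocyte and monocyte markers (9 of 12 matched), from between 916 and 931 to between 699 and 709 CPM, and for macrophage markers (5 of 10), from between 129 and 140 to between 76.1 and 82.1 CPM. Mast cell markers (6 of 9) were at 369 to 374 and 364 to 372 CPM, endothelial markers (8 of 8) at 1836 to 1884 and 1606 to 1621 CPM, and hepatocyte markers (2 of 10) at 8.49 to 10.5 and 5.39 to 5.64 CPM. The part of these shifts in the levels of the heme genes was not tested.

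Genes with a pattern most like ALAS2 or TFRC were sought among 7114 genes tested in both experiments at a mean of at least 10 CPM in each. Likeness was the root mean square difference over 12 libraries between log2 deviations from the control mean. The 5 nearest to ALAS2 were ELMO1 (0.065), ITGAV (0.088), ORAI2 (0.10), IFITM1 (0.11) and STAP1 (0.11). ELMO1 differed by 0.99 in the mouse and 0.57 in the human cells, beside 1.01 and 0.57 for ALAS2. The 5 nearest to TFRC were STX2 (0.059), CENPF (0.073), ASPM (0.076), TROAP (0.088) and PIF1 (0.10). STX2 differed by -0.75 and -0.83, beside -0.81 and -0.78 for TFRC. None of the 9 heme and iron genes was among the 5 nearest to either. This follows from the differences given above and is no separate result. No other gene of the 9 rose in both experiments, and no other fell as much as TFRC in both.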

How the data were processed

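RNA of LK cells (WT, cKO) and H1-derived cells (shNC, shDDX21) was sequenced from poly(A) libraries, 3 per group, per the labels' protocols. The submitters' processing notes name STAR, featureCounts, DESeq2, mm10 and hg38, with no versions; whether strand was used, and how reads with several matches were treated, is not given in the sources used here. The authors deposited raw counts per gene with an exon length for each gene (unit: other, in bases). The deposited normalized values (unit: signal) equalled raw counts over a constant of each library (largest relative deviation 4.97e-10), and the deposited log2 values set them against the control mean; both were used for gene symbols only. The number of per-sample columns that could not be tied to a sample was 0.

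Raw counts were tested per experiment with edgeR 4.0.16 in R 4.3.3 (filterByExpr, TMM, glmQLFit, glmQLFTest, two-sided, no covariates, Benjamini-Hochberg over all genes tested, called at adjusted p under 0.05). A joint fit of 12 libraries, scaled within each experiment, tested the interaction. CPM use the TMM-scaled library size, the likeness of patterns used edgeR's log2 CPM with a prior count of 2, and intervals are 95%. With 3 libraries against 3, an exact permutation test cannot go below 0.1, so no such test of single genes was made. Alternatives were RLE, upper-quartile and total-count scaling, no filter on low counts, at least 10 counts in every library, a replicate block, DESeq2 1.42.0 (not for the interaction) and leaving out each library, and RPKM for the order per length. Tested on simulated counts with 100 genes each changed 2- and 4-fold, from a mean of at least 50 counts, the procedure recovered 93 and 100 in the mouse (13 false calls among 14601 genes) and 100 and 100 in the human experiment (8 among 19734). For the interaction, with changed genes drawn without that minimum, it recovered 93 of 100 and 97 of 99 (18 false calls among 10248 genes). Counts were simulated independently for each library, so outlying libraries like those of the mouse were not covered.

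GENCODE M21 held 99.4% of the mouse gene identifiers, 99.4% of those at the same position, so mouse coordinates are GRCm38; no human annotation was used here. Same-numbered libraries did not deviate together in every pair (correlations of 0.32, -0.18 and 0.013 in the mouse, -0.014, -0.0024 and -0.00086 in the human experiment), with only the first mouse pair above 0.1, so the numbers were not taken as pairs. Mouse libraries of different numbers had larger correlations, at 0.41 for WT replicate 3 with cKO replicate 2 and -0.42 for WT replicate 3 with cKO replicate 1. Mouse deviations were thus not unrelated between groups, and the cause was not tested. Libraries of a group differed by more than sampling noise (chi-square per degree of freedom of 1.52 or more) and were kept as replicates. Genes, lists and alternatives were chosen with earlier results of these data known. A few genes of the lists are not reported here. Named by rule were the 9 genes, UROS and PPOX, up to 4 called genes of each further list with the largest log2 difference and a mean of at least 5 CPM, 7 fixed iron and erythroid genes (FTH1, FTL, SLC40A1, HMOX1, GATA1, KLF1, EPOR), and the 5 genes nearest in pattern to ALAS2 and to TFRC.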

Additional observations from a re-analysis of the deposited data

Results flagged for a closer look

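For 5 of the 9 genes the log2 difference in the mouse cells departed from that in the human cells by the interaction test of the joint edgeR fit, where 56.3% of all genes tested did so. The count is near that share and does not set the 9 genes apart. ALAS2 rose more in cKO than in shDDX21, by 0.43. UROD (-0.83), ALAD (-0.96), SLC25A37 (-0.78) and SLC25A38 (-1.02) were lower in cKO and higher in shDDX21. All 5 were called in each of the 18 alternatives run for the interaction, which all share 1 estimate of spread. The interaction tests whether the differences are unequal, not whether their signs are opposite. Within the experiments, mouse Alad and Slc25a37 were each called in 10 of 13 alternative settings, and human ALAD in 8 of 13. The experiments differ in species, cells, means of perturbation and time, which cannot be told apart here.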

How the results depend on the processing

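The increase of ALAS2 and the decreases of TFRC and ALAS1 were called in all 13 alternatives of each experiment, and so were Urod and Slc25a38 in the mouse and UROD, SLC25A37 and SLC25A38 in the human cells. The number of the 9 genes called lower in the mouse was 4 to 7 when 1 library was left out (7 with all), and all genes called lower fell from 2360 to 1498, 1480 and 1368 without WT replicate 1, WT replicate 2 and cKO replicate 3. With upper-quartile scaling 2 human genes were called lower, in place of 4. For the interaction, genes with the mouse difference above the human numbered 1, 2 with total counts, and 1 to 2 when 1 library was left out. Signs turned with total counts for Fech (0.028) and, in the interaction, for CPOX (0.073) and TFRC (0.065). Leaving out 1 library turned them within ranges of -0.053 to 0.00096 (Fech, without cKO replicate 1), -0.0083 to 0.20 (human FTH1, without shDDX21 replicate 3), -0.046 to 0.0033 (CPOX in the interaction, without shNC replicate 3) and -0.051 to 0.014 (TFRC in the interaction, without cKO replicate 1). The cause was not tested. Total-count scaling moved the mouse calls over all genes from 3083 higher and 2360 lower to 3565 and 1612, and no scaling moved the median of all genes by more than 0.069. With a replicate block, 1 gene was called higher and 6 lower in the mouse (Cpox at adjusted p 0.0618 in edgeR), 5 and 4 in the human cells, and 1 above and 4 below in the interaction; human KLF1 was then called (adjusted p 0.0468), and no other call of a named gene changed. RPKM gives the same order per length by construction and does not test it. Mouse Alas2, with 220 to 268 WT counts, is the least deeply counted of the 9 genes.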
